A study of Homo sapiens with 6 samples.

Results

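The 10 genes of replication origin licensing and helicase activation described here were followed in HCT116 cells: ORC1 and ORC6 of the origin recognition complex, the loading factors CDC6 and CDT1, the CDT1 inhibitor GMNN (geminin), CDC45, and the 4 GINS subunits GINS1, GINS2, GINS3 and GINS4. They were taken by gene symbol from the 61806 genes of the deposited table. All 10 symbols were found with 1 gene each, and all 10 were among the 15687 genes with enough counts to be tested.

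Licensing is the step in which a cell marks its replication origins. The origin recognition complex binds the DNA, and CDC6 and CDT1 then load the ring of MCM2 to MCM7, an inactive helicase, around it. Geminin binds CDT1 after S phase has begun and blocks further loading, so that each origin fires no more than a single time per cycle. At the start of S phase CDC45 and the GINS complex join the loaded ring, and these parts together form the active CMG helicase that opens the DNA ahead of the fork. Many of these genes are known targets of E2F transcription factors, and several of their proteins are degraded at set points of the cycle, so that transcript and protein levels can differ.

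HCT116 is a human colorectal carcinoma line. Of 6 RNA libraries, 3 were made after transfection with a negative-control siRNA (si-NC) and 3 after that with an siRNA aimed at STRIP2 (si-STRIP2), whose protein is part of STRIPAK complexes of phosphatases and kinases. The genotype label is wildtype for the former and STRIP2 knockdown for the latter. All cells shared the same line and the same serum-containing medium. The labels name neither the duplexes, nor the time after transfection, nor separate cultures, so the p-values below measure the spread between these libraries, which may be technical. The measurement is bulk poly(A) RNA. In it a change in the share of cells that express a gene and a change in RNA per cell cannot be told apart, and neither cell cycle phase nor protein was measured.

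The libraries held 17184963 to 21721218 counts, of which mitochondrial genes took 4.88% to 8.88%. STRIP2 stood at 3.19, 3.77 and 3.81 FPKM (counts relative to exonic length and to all counts of the library) in si-NC and at 2.71, 2.53 and 2.58 in si-STRIP2, so 72.6% of the control level remained (log2 fold change -0.46, edgeR adjusted p = 1.62e-05). Of 9 markers of colorectal epithelium, 6 were at 1 FPKM or more in every library, among them EPCAM and CDH1, while CDX1 was at 0 in every library and VIL1 and CDH17 did not exceed 0.0900 FPKM. The summed level was 0.110 to 0.430 FPKM for 5 leukocyte markers and 0.160 to 0.460 FPKM for 4 endothelial markers. For 5 fibroblast markers it was 1.92 to 2.57 FPKM, nearly all of it COL1A1, with COL1A2, DCN and THY1 at 0.

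In all, 9 of the 10 genes rose in si-STRIP2 cells and CDC6 fell. The edgeR test (quasi-likelihood, Benjamini-Hochberg adjusted over all genes tested, called at an adjusted p under 0.05) called all 10. It also called 54.8% of all tested genes, 27.8% higher and 27.0% lower, so a call as such was common in these libraries. The median log2 fold change of the 10 genes was 0.47, against 0.014 for all tested genes. Against a minimum change of 1.2-fold, 7 of the 10 passed, all of them higher, where 11.3% of all tested genes passed as higher and 12.4% as lower. CDC6, GINS3 and GINS4 did not pass that test. No FPKM value of one group lay within the range of the other for any of the 10 genes, which also held for 58.6% of tested genes.

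**Figure D1:**
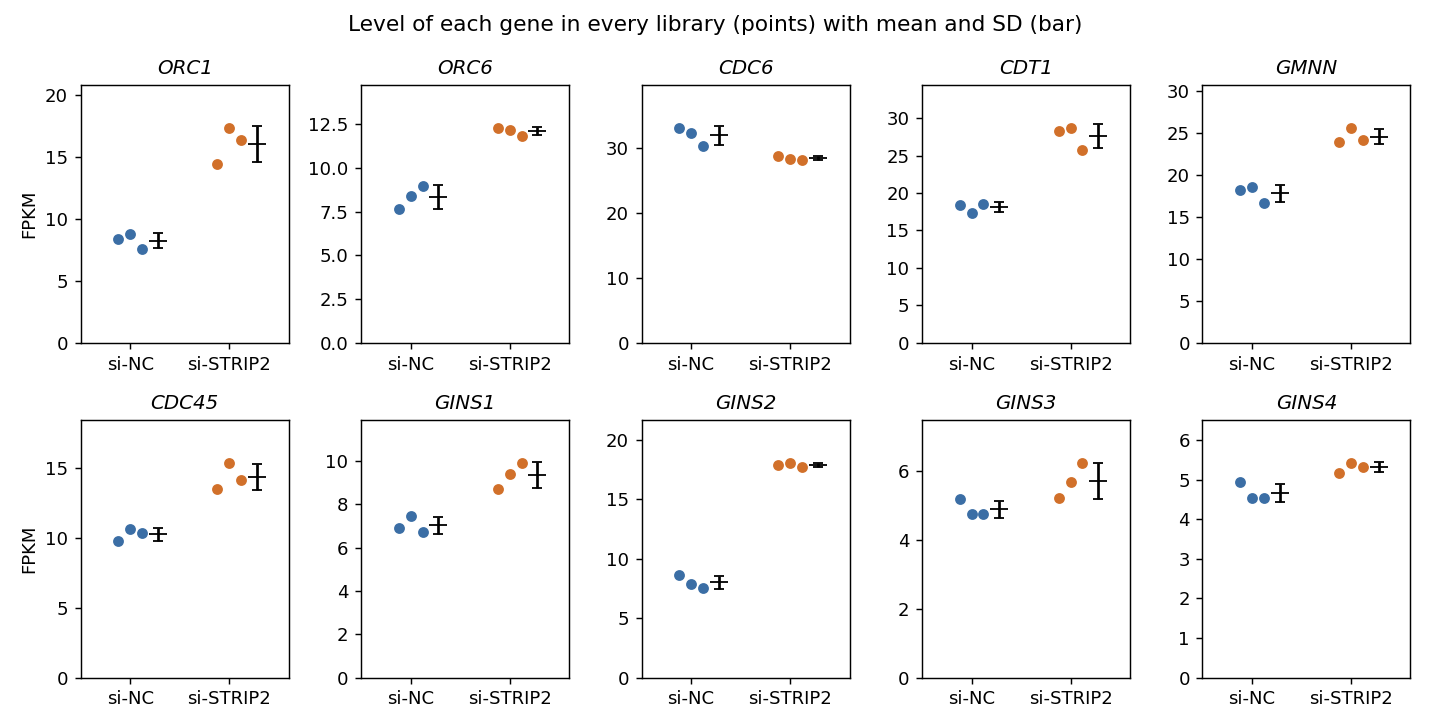
FPKM of each gene (vertical axis, from 0) in the 3 si-NC and 3 si-STRIP2 libraries (points), with the mean and SD (bar). The 3 si-STRIP2 points lie above the 3 si-NC points in 9 panels and below them in the panel of CDC6, and GINS3 has the narrowest gap, 0.04 FPKM.

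ORC1 (ENSG00000085840, chromosome 1, 52372829 to 52404423, minus strand) encodes the largest subunit of the origin recognition complex, an ATPase. It was at 8.41, 8.77 and 7.57 FPKM in si-NC and at 14.45, 17.32 and 16.37 in si-STRIP2. Every si-STRIP2 library was above every si-NC library by at least 5.68 FPKM. The mean went from 8.25 ± 0.616 to 16.1 ± 1.46 FPKM (SD, n = 3), a log2 fold change of 0.95 ± 0.067 (SE, edgeR adjusted p = 4.58e-14).

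ORC6 (ENSG00000091651, chromosome 16, 46689643 to 46698394, plus strand) encodes the smallest subunit, which is held less tightly by the complex than the others. Its levels were 7.63, 8.39 and 8.97 FPKM in si-NC and 12.27, 12.16 and 11.82 in si-STRIP2. The groups did not overlap, and the si-STRIP2 libraries were close to one another. The log2 fold change was 0.54 ± 0.057 (SE, edgeR adjusted p = 6.33e-10). In si-NC the FPKM of ORC1 was 1.10, 1.05 and 0.844 times that of ORC6, and in si-STRIP2 it was 1.18, 1.42 and 1.39 times. The log2 ratio was thus higher by 0.42 in si-STRIP2 with no overlap of groups (exact permutation test, 2-sided, p = 0.1, the smallest that 3 against 3 allows, and 0.133 adjusted over the 4 ratios fixed for comparison).

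The other 4 subunits of the same complex did not follow ORC1 and ORC6 as a body. ORC3 rose (log2 fold change 0.28, edgeR adjusted p = 6.71e-06). ORC4 fell, from 8.69 ± 0.295 to 7.47 ± 0.142 FPKM (SD, n = 3), a log2 change of -0.22 (edgeR adjusted p = 8.76e-05). ORC2, at 0.044, and ORC5, at -0.079, were not called (edgeR adjusted p = 0.473 and 0.199). ORC2, ORC3 and ORC5 are named to complete the complex, after their values were seen. Of the 6 subunits, 3 were therefore higher and 1 lower, with a median log2 fold change of 0.16, while all 6 genes of the MCM2 to MCM7 ring were higher, with log2 fold changes of 0.24 to 1.51.

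CDC6 (ENSG00000094804, chromosome 17, 40287879 to 40304657, plus strand) encodes the ATPase that joins the origin recognition complex and recruits CDT1 with the ring. It had the highest mean FPKM of the 10 genes in both groups, though in si-STRIP2 its libraries overlapped those of CDT1. It was at 33.14, 32.42 and 30.39 FPKM in si-NC and 28.83, 28.42 and 28.17 in si-STRIP2. All 3 si-STRIP2 libraries were below all 3 si-NC libraries, by at least 1.56 FPKM. The mean went from 31.98 ± 1.43 to 28.47 ± 0.333 FPKM (SD, n = 3), 89.0% of the control. On the log2 scale this was -0.17 ± 0.041 (SE), with a 95% interval of -0.25 to -0.091 (edgeR adjusted p = 0.000667). The fall was small, 1.13-fold, and did not pass the test against a 1.2-fold change (edgeR adjusted p = 1), but its sign and its call at an adjusted p under 0.05 held in each of the 6 fits that left out 1 library, with log2 fold changes of -0.21 to -0.14.

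CDT1 (ENSG00000167513, chromosome 16, 88803789 to 88809258, plus strand) encodes the partner of CDC6 that brings the ring to the origin. It was at 18.43, 17.35 and 18.51 FPKM in si-NC and at 28.27, 28.68 and 25.75 in si-STRIP2. The groups were 7.24 FPKM apart at their nearest. The log2 fold change was 0.60 ± 0.050 (SE, edgeR adjusted p = 2.80e-12).

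The opposite directions of the loading factors changed the balance between them. The FPKM of CDC6 was 1.80, 1.87 and 1.64 times that of CDT1 in the si-NC libraries and 1.02, 0.991 and 1.09 times in the si-STRIP2 libraries. With the deposited sizes CDC6 was thus the more abundant per length in the former, and the pair was about level in the latter. With GENCODE 29 sizes (CDT1 3336 bases in place of 2760) the si-STRIP2 means were 27.2 FPKM for CDC6 and 22.8 for CDT1, so being level depends on the size used, while the difference between groups in log2 ratio does not. The log2 ratio went from 0.82 ± 0.096 to 0.048 ± 0.073 (SD, n = 3), a difference of -0.77 with no overlap (exact permutation test, 2-sided, p = 0.1, the smallest possible; 0.133 adjusted over 4 ratios). CDC6 made up 48.0% ± 1.35 of the summed FPKM of ORC1, ORC6, CDC6 and CDT1 in the controls and 33.8% ± 0.882 after si-STRIP2 (SD, n = 3). That sum itself was 66.7 ± 1.11 and 84.2 ± 2.26 FPKM.

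GMNN (ENSG00000112312, chromosome 6, 24774931 to 24786099, plus strand) encodes geminin, the inhibitor of CDT1. Its levels were 18.20, 18.62 and 16.66 FPKM in si-NC and 23.94, 25.62 and 24.22 in si-STRIP2. The groups did not overlap, and the log2 fold change was 0.46 ± 0.052 (SE, edgeR adjusted p = 3.78e-09). The inhibitor transcript thus rose together with that of its target. The ratio of CDT1 to GMNN was 1.01, 0.932 and 1.11 in si-NC and 1.18, 1.12 and 1.06 in si-STRIP2, and these ranges overlapped. The log2 ratio was 0.023 ± 0.127 and 0.16 ± 0.076 (SD, n = 3), a difference of 0.14 (exact permutation test, 2-sided, p = 0.2, and 0.2 adjusted over 4 ratios). With 3 against 3 the smallest possible p is 0.1, so the test could not reach 0.05 and does not show an unchanged ratio. Of the geminin relatives, MCIDAS was not called (log2 fold change 0.23, edgeR adjusted p = 0.0972) and GMNC had too few counts to be tested.

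CDC45 (ENSG00000093009, chromosome 22, 19479457 to 19520612, plus strand) encodes the protein that, with GINS, turns the loaded ring into a working helicase. It was at 9.77, 10.65 and 10.38 FPKM in si-NC and at 13.55, 15.40 and 14.17 in si-STRIP2, again with no overlap. The mean went from 10.3 ± 0.451 to 14.4 ± 0.942 FPKM (SD, n = 3), and the log2 fold change was 0.48 ± 0.061 (SE, edgeR adjusted p = 3.06e-08).

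GINS is a complex with 1 copy of each of its 4 subunits, yet their transcripts changed by different amounts. GINS2 (ENSG00000131153, chromosome 16, 85676198 to 85690073, minus strand) was at 8.61, 7.84 and 7.56 FPKM in si-NC and at 17.85, 18.07 and 17.71 in si-STRIP2. Its mean went from 8.003 ± 0.544 to 17.9 ± 0.182 FPKM (SD, n = 3), which gave a log2 fold change of 1.15 ± 0.058 (SE, edgeR adjusted p = 9.88e-18). This was the highest fold change of the 10 genes, 2.22-fold, and it ranked at 160 by size among the 4359 genes called higher. GSE1, on the opposite strand and overlapping GINS2 in the deposited coordinates, held 345% as many counts. GSE1 went the other way (log2 fold change -0.29, edgeR adjusted p = 3.32e-07), and only 7 exonic bases, 0.214% of those of GINS2, lie in exons of both genes in GENCODE 29. Whether the counting used strand is not given in the sources used here, and without it reads in those bases cannot be told apart.

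GINS1 (ENSG00000101003, chromosome 20, 25391008 to 25452700, plus strand) was at 6.92, 7.47 and 6.71 FPKM in si-NC and at 8.71, 9.40 and 9.91 in si-STRIP2. The groups did not overlap, and the log2 fold change was 0.41 ± 0.052 (SE, edgeR adjusted p = 4.05e-08). The gene NINL overlaps it on the opposite strand with 22.4% as many counts; it was not called (log2 fold change -0.081, edgeR adjusted p = 0.483), and the exons of the pair share 0 bases in GENCODE 29, where GINS1 has 4068 exonic bases. The deposited size of GINS1 is 8017 bases, so the exons counted may differ from these, and their overlap was not tested.

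Of the GINS genes, GINS3 and GINS4 changed least. GINS3 (ENSG00000181938, chromosome 16, 58295080 to 58406147, plus strand) was at 5.18, 4.75 and 4.76 FPKM in si-NC and at 5.22, 5.70 and 6.25 in si-STRIP2, so that the first library of each group nearly met. Its log2 fold change was 0.22 ± 0.073 (SE, edgeR adjusted p = 0.0122), and the call was lost without si-STRIP2 replicate 3 (log2 fold change 0.14, edgeR adjusted p = 0.130). GINS4 (ENSG00000147536, chromosome 8, 41529218 to 41545030, plus strand) was at 4.93, 4.54 and 4.53 FPKM in si-NC and at 5.18, 5.43 and 5.33 in si-STRIP2. Its log2 fold change was 0.18 ± 0.067 (SE, edgeR adjusted p = 0.0233). The call of GINS4 was the least firm of the 10. It was lost under DESeq2 (adjusted p = 0.0780) and in 4 of the 6 edgeR fits that left out 1 library: si-NC replicate 2, si-NC replicate 3, si-STRIP2 replicate 2 or si-STRIP2 replicate 3 (adjusted p of 0.0608 to 0.0942).

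The 95% interval of the log2 fold change of GINS2, 1.04 to 1.26, lay above those of GINS1 (0.30 to 0.51), GINS3 (0.073 to 0.36) and GINS4 (0.048 to 0.31). With the deposited sizes, the level of GINS2 was 1.53, 1.44 and 1.44 times the geometric mean of the other GINS genes in si-NC. It was 2.89, 2.73 and 2.56 times that mean in si-STRIP2. These ratios are lower with GENCODE 29 sizes, where the si-NC means were 13.9 FPKM for GINS1 and 7.89 for GINS2. The difference between groups in log2 ratio does not depend on the size used. The groups did not overlap, and the log2 ratio was higher by 0.89 (exact permutation test, 2-sided, p = 0.1, the smallest possible; 0.125 adjusted over 5 ratios, this one being added after the values were seen). The distance from the highest to the lowest GINS gene went from 0.78 to 1.75 on the log2 FPKM scale (exact permutation p = 0.1, the smallest possible; 0.133 adjusted over 4 ratios). That distance depends on gene size: the deposited exonic size of GINS1 is 8017 bases against 4068 in GENCODE 29, and with the latter sizes GINS1 was the highest in both groups and the distance grew by 0.23 in place of 0.97.

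**Figure D2:**
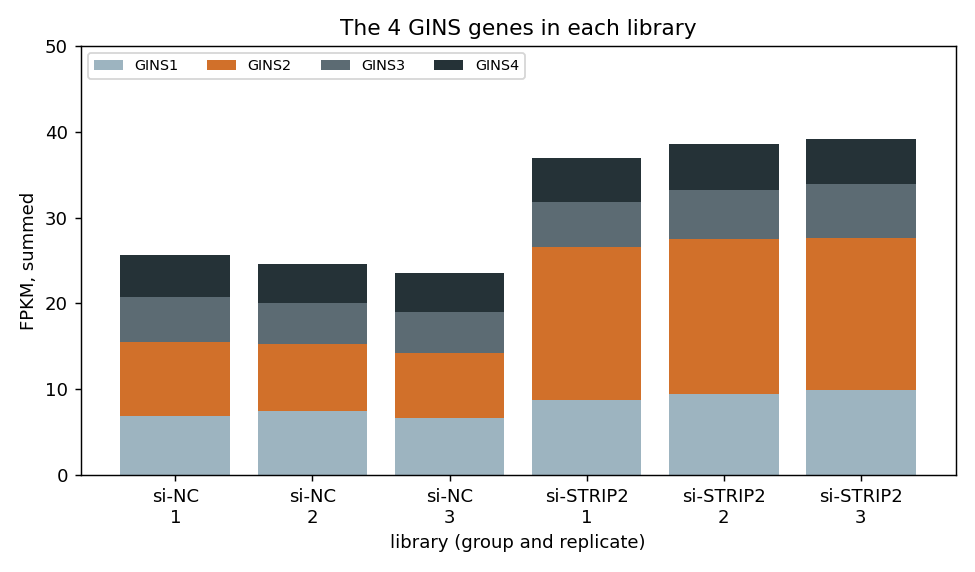
FPKM of GINS1, GINS2, GINS3 and GINS4, with the deposited exonic sizes, stacked for each of the 6 libraries (horizontal axis); the vertical axis starts at 0. The sum is 23.6 to 25.6 FPKM in si-NC and 37.0 to 39.2 in si-STRIP2, and the GINS2 part grows from 32.5% to 46.8% of it on average.

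**Figure D3:**
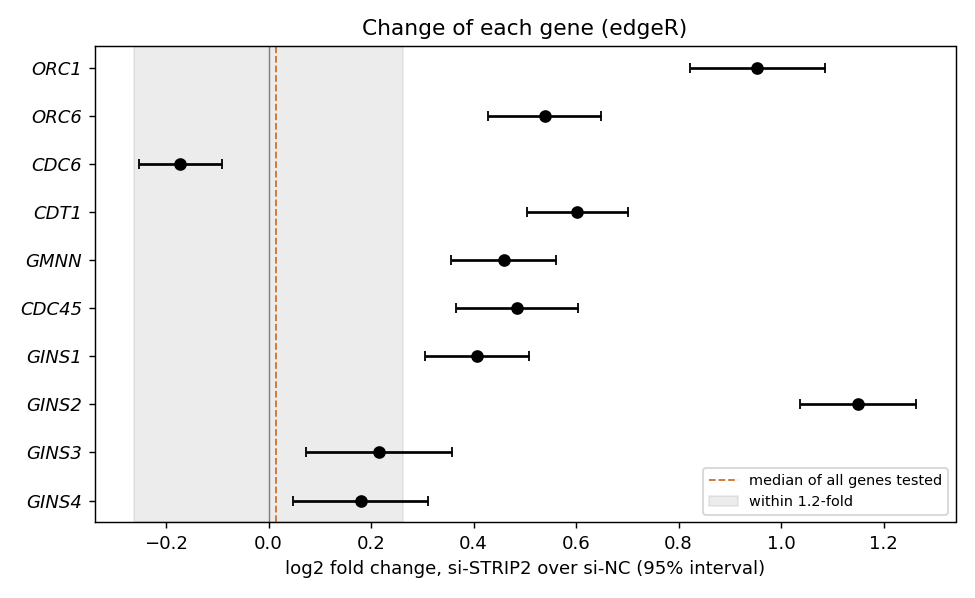
Log2 fold change of each gene in si-STRIP2 over si-NC (points, horizontal axis) with its 95% interval from the edgeR standard error; the dashed line is the median of all tested genes and the grey band spans changes within 1.2-fold. GINS2 and ORC1 lie farthest to the right, CDC6 alone lies left of 0, and the points of CDC6, GINS3 and GINS4 lie inside the band.

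The order of the levels also changed. In si-NC it ran from CDC6 over CDT1, GMNN, CDC45, ORC6, ORC1, GINS2, GINS1 and GINS3 to GINS4. CDT1 and GMNN, ORC6 and ORC1, ORC1 and GINS2, and GINS3 and GINS4 were neighbours whose libraries overlapped. In si-STRIP2 GINS2 moved from the seventh to the fourth place and ORC1 from the sixth to the fifth, CDC6 and CDT1 overlapped, and so did ORC1 and CDC45, and GINS3 and GINS4. With GENCODE 29 sizes GINS1 took the fourth place in both groups, at 13.9 FPKM in si-NC, and GMNN passed CDT1 in both, while CDC6 stayed first and GINS4 last.

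Promoter sequences from RefSeq (GRCh38.p14) were examined for the words of E2F factors, since most of these genes rose together. The table holds promoters of 250 bases before the start site and 50 from it on for 9 of the 10 genes. Here 5 windows of 120 bases are printed, from 100 bases before the start site to 19 after it, for the highest rises (GINS2 and ORC1), for the loading factors that went opposite ways (CDT1 and CDC6) and for a gene that changed little (GINS3). They are read 5′ to 3′ on the strand of the gene, and capitals mark the E2F words given below. The windows are ORC1 at chr1:52404404-52404523 (minus strand), CDC6 at chr17:40287779-40287898 (plus), CDT1 at chr16:88803689-88803808 (plus), GINS2 at chr16:85688935-85689054 (minus) and GINS3 at chr16:58392371-58392490 (plus).
ORC1: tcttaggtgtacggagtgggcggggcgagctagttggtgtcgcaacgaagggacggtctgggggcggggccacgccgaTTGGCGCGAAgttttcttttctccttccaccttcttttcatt
CDC6: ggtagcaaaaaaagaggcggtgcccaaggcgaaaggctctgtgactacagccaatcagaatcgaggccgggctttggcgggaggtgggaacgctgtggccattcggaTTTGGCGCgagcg
CDT1: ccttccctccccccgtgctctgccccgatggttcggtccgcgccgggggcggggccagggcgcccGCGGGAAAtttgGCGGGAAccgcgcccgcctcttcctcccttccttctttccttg
GINS2: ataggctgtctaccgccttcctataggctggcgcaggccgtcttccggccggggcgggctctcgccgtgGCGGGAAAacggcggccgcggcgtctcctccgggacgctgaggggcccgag
GINS3: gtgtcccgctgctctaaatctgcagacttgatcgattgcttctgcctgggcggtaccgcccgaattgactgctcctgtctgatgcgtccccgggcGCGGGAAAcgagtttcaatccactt

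The 8-base words searched were TTTGGCGC or TTTCCCGC or TTTGCCGC or TTTCGCGC, on both strands. At least 1 of them occurred in a promoter of 6 of the 9 genes, CDC6, CDT1, GMNN, GINS1, GINS2 and GINS3, against 6.62% of the 11074 tested genes that the table covers, counted in the same way by gene, and 3.31% of all 35116 promoters. CDC6 and GINS1 carried it just after the start site (first base at 7 and 5, the start site being 0), GINS3, GINS2 and CDT1 just before it (-5, -31 and -35), and the second promoter of GMNN at -80. CDC6, which fell, carried the same TTTGGCGC as the promoters of GMNN and GINS1, which rose. GINS3, which changed little, carried TTTCCCGC on the opposite strand, as did GINS2 and CDT1. Whether these words bear on the direction or size of the changes was not tested. Without their first T, the words occur in 24.7% of those tested genes and 12.97% of all promoters, and also in ORC1, where a pair on opposite strands overlaps at -22 and -19 to give TTGGCGCGAA. ORC6 and CDC45 held none of these words. Similar sequences were not searched, so their share over all promoters is not known. An example is TTTGGCGGGA, visible in promoters of CDC45, CDC6 and CDT1, which in CDT1 overlaps a shorter word marked above. The shorter words were added after the sequences were seen.

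CCAAT, the word of the factor NF-Y, occurred on either strand in promoters of 7 of the 9 genes (all but CDT1 and GINS3), against 43.1% of the tested genes covered and 34.6% of all promoters. The words TTTGAA or TTCGAA, known from genes of late cell cycle phases, occurred in none of the 9, in 15.2% of the tested genes covered and in 16.4% of all promoters. These matches are letters in a window, not sites shown to be bound. Across the tested genes that the table covers, 37.7% of 733 with an 8-base E2F word were called higher and 25.9% lower (edgeR), with a median log2 fold change of 0.058. Among the 10341 genes without it these were 29.1%, 28.9% and 0.0061. The 733 include 6 of the genes described here and the 10341 include 3. Whether these sets of genes differ was not tested. In the deposited table GINS1, GINS2 and GINS3 begin before the RefSeq start site, GINS3 by 97391 bases and GINS2 by 1119, so these windows need not hold the start of every transcript counted. GINS1 begins at 25391008, and its promoter is at chr20:25407423-25407722. The GMNN promoter with an E2F word, chr6:24775163-24775462, lies within the deposited gene, as do the CDC45 promoters with CCAAT. The other GMNN promoter held no E2F word.

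**Figure D4:**
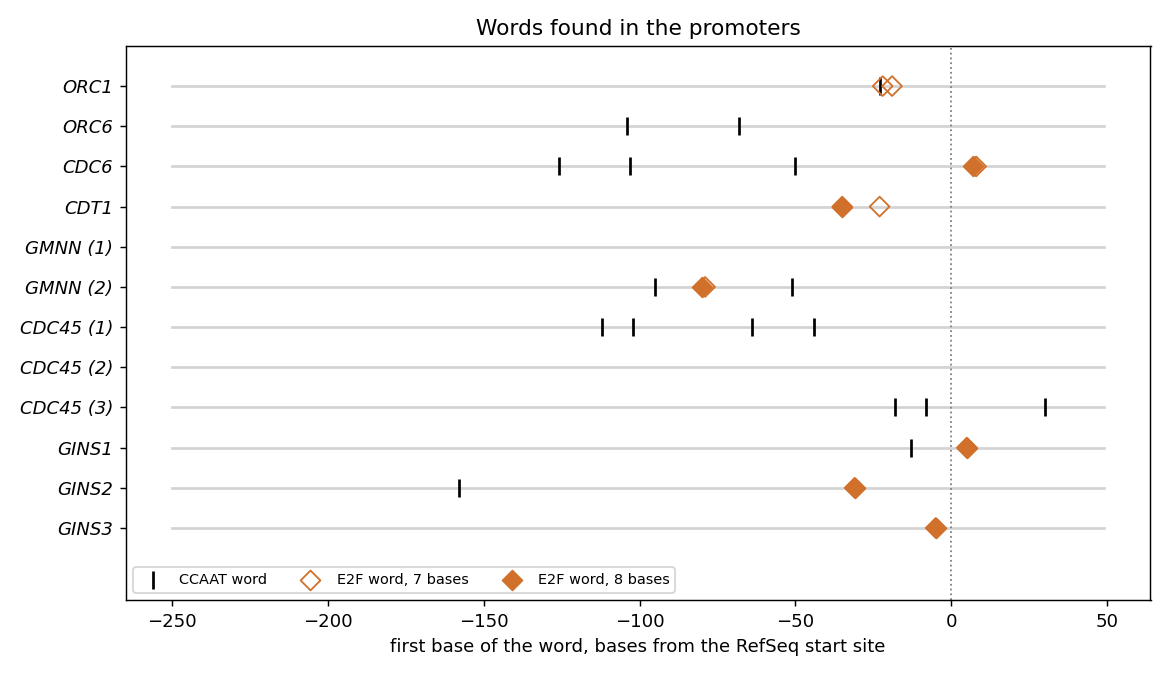
Position of the first base of each word (horizontal axis, bases from the RefSeq start site, dotted line at 0) in the 12 promoters of 9 genes, with numbers for genes that have several. Filled diamonds are 8-base E2F words, open diamonds those of 7 bases and ticks CCAAT; the 8-base words of 5 genes lie within 35 bases of the start site and that of GMNN at -80.

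Partners of these proteins were called higher more often than lower. The counts below are to be read against the 27.8% of all tested genes called higher and 27.0% called lower. Of 14 further licensing genes (other origin recognition subunits, the MCM ring and their helpers), 8 rose, 2 fell and 4 were not called, with a median log2 fold change of 0.26. MCM5, of the ring, rose from 7.34 ± 0.162 to 21.0 ± 0.665 FPKM (SD, n = 3), and MCM4 and MCM3 had log2 fold changes of 1.37 and 1.01. BRPF3, a scaffold of the acetyltransferase that acts on histones at origins, fell from 6.65 ± 0.211 to 5.13 ± 0.146 FPKM (log2 fold change -0.38, edgeR adjusted p = 8.27e-07). Of 18 genes of origin firing, 13 rose, 1 fell and 4 were not called, with a median of 0.40. CCNE1 and CCNA2, the cyclins that switch on CDK2, had log2 fold changes of 0.89 and 0.62, and POLE, the catalytic subunit of the leading-strand polymerase, one of 0.65. The gene that fell was DONSON, whose protein helps bring GINS to the ring, from 14.9 ± 0.147 to 12.1 ± 0.518 FPKM (log2 fold change -0.30, edgeR adjusted p = 9.71e-06).

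Among 21 genes of the fork that work beside CDC45 and GINS, 17 rose and 4 were not called, with a median log2 fold change of 0.29. No gene of this list was called lower. LIG1, the ligase that joins lagging-strand fragments, rose from 4.01 ± 0.350 to 7.45 ± 0.210 FPKM (log2 fold change 0.90, edgeR adjusted p = 3.00e-16). PRIM2, a primase subunit, and RPA1, which coats single-stranded DNA, had log2 fold changes of 0.76 and 0.63.

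Of 14 genes that control the turnover of licensing proteins, 8 were higher, 2 lower and 4 not called, with a median log2 fold change of 0.17. SKP2, a ubiquitin ligase subunit that recognises CDT1, rose from 1.65 ± 0.0586 to 4.16 ± 0.133 FPKM (log2 fold change 1.33, edgeR adjusted p = 1.39e-20). DDB1, the adaptor of the ligase that destroys CDT1 in S phase, rose by 0.63 on the log2 scale, and CCNF, a cyclin and ligase subunit that recognises CDC6, by 0.55. USP37, a deubiquitinase that acts on CDT1, fell (log2 fold change -0.31, edgeR adjusted p = 6.06e-05). HUWE1, a ubiquitin ligase with CDC6 among its targets, had a log2 fold change of -0.13 (edgeR adjusted p = 0.0304) with FPKM values that overlapped between the groups.

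Cell cycle markers are given because licensing genes vary over the cycle. Of 16 G1/S transcripts 11 rose, 2 fell and 3 were not called, with a median log2 fold change of 0.29. TK1 (0.72), CHAF1A (0.67) and UHRF1 (0.57) had the smallest adjusted p among those that rose. RRM2, the small subunit of ribonucleotide reductase, fell from 74.2 ± 2.44 to 65.8 ± 0.876 FPKM (log2 fold change -0.18, edgeR adjusted p = 0.000595), a change of the size seen in CDC6, and EXO1 fell by 0.12 on the log2 scale. All 18 G2/M transcripts rose, with a median of 0.35, among them TTK (0.63), CENPF (0.48) and TOP2A (0.44). Against a minimum change of 1.2-fold, 9 of the 18 G2/M and 7 of the 16 G1/S transcripts passed, all higher. Of the lists above, 8 of 21 fork, 9 of 18 firing and 4 of 14 turnover genes passed, all higher. Of the 14 further licensing genes, 6 passed as higher and 1 as lower. Of all tested genes, 11.3% passed as higher and 12.4% as lower. The part of cell cycle phase in the changes of the licensing genes was not tested.

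**Figure D5:**
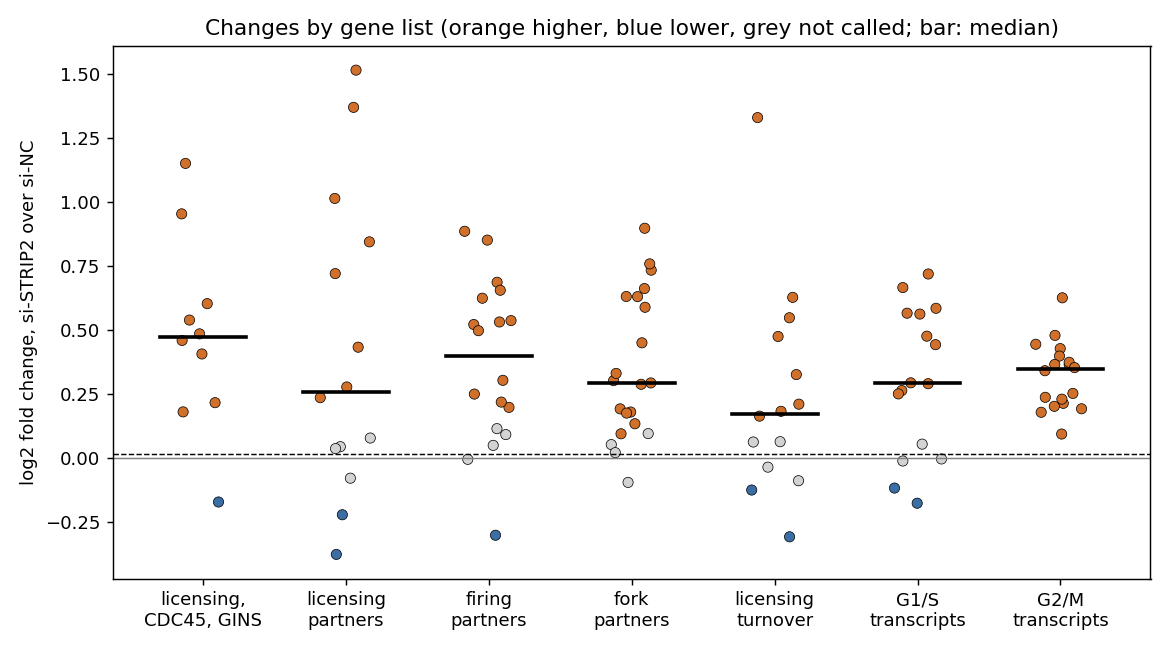
Log2 fold change in si-STRIP2 over si-NC (vertical axis) of each tested gene, by list (horizontal axis), with the median of each list (bar) and the median of all tested genes (dashed line). The list medians lie between 0.17 and 0.47, and each list shown but the fork partners and the G2/M transcripts holds at least 1 gene called lower.

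The mean profile of the 10 genes over the 6 libraries was compared with those of 6647 other genes of at least 5 FPKM, as the Euclidean distance between log2(FPKM + 0.1) values set to a si-NC mean of 0. The 5 nearest were ZNF286A (distance 0.0429), HMCES (0.0464), ST13 (0.0482), GOT2 (0.0496) and VCL (0.0498), all with log2 fold changes of 0.46 to 0.50. ZNF286A encodes a zinc finger protein, HMCES a shield of abasic sites in DNA, ST13 a cofactor of HSP70, GOT2 a mitochondrial aminotransferase and VCL vinculin. Of the 10 genes themselves, GMNN was nearest to their mean (0.0914), followed by CDC45 (0.133). GINS2 (1.17) and CDC6 (1.13) were the farthest, in opposite directions, so the mean describes the middle of the group and not its ends.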

How the data were processed

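RNA-seq of 6 HCT116 libraries, 3 per group, was analysed from 1 deposited table. Per the labels' protocols, poly(A) RNA was selected and libraries were made with a directional kit. The submitters' processing notes name cutadapt 1.9.1, HISAT2 2.2.1, HTSeq 0.6.1 and GRCh38.p13; the strand setting is not given in the sources used here. The authors deposited raw counts and FPKM per gene; the deposited FPKM differed from a recomputation (counts, exonic size, column total) by at most 0.005, their rounding.

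The counts were tested in edgeR 4.0.16 (R 4.3.3): filterByExpr with a minimum count of 10 left 15687 genes, libraries were scaled by TMM, and a quasi-likelihood model with group as its only term gave 2-sided p-values, adjusted by Benjamini-Hochberg over all genes tested. Standard errors are the absolute log2 fold change over the square root of F, and 95% intervals are normal. The 10 genes had 406 to 3823 counts per library. Ratios per library were compared by exact permutation tests in SciPy 1.17.1. DESeq2 1.42.0 and limma 3.58.1 were alternatives, with other scalings, filters and each library left out. The edgeR step was tested on simulated data. Labelled replicate numbers were not used as a block.

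The genes and lists were chosen with earlier results of these data known. The text names the 10 genes, STRIP2, per list the 3 called higher and 3 called lower with the smallest adjusted p, the 5 nearest profiles and overlapping genes with over 10% as many counts. Others are named as seen. A planned search of protein words was not run, as protein sequences were not used here. Promoters are from RefSeq on GRCh38.p14 and matched by symbol; the promoter of GINS4 was not used here.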

Additional observations from a re-analysis of the deposited data

How the results depend on the processing

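Each of the 10 genes kept its direction under all 19 alternatives, and 7 kept their call. Direction could not change in the test against a 1.2-fold change or at an adjusted p under 0.01, which keep the main fold changes. The calls of CDC6, GINS3 and GINS4 were lost in the test against a 1.2-fold change, those of GINS3 and GINS4 at an adjusted p under 0.01, and others as given above. Over the 6 fits without 1 library, 8 to 10 of the genes were called and 7 to 9 were higher, and their median log2 change was 0.43 to 0.51. Of the partner and marker genes 77 to 83 were called, against 82 with all libraries. Of all genes 7690 to 8494 were called, against 8599 of 15687 (54.8%) with all libraries. The filter was applied again in each of these fits, so the number of genes tested can differ. Against a 1.2-fold change 44 of the partner and marker genes and 3723 of the 15687 genes tested were called. With a filter of 5 FPKM, 5002 of all genes were called. Both follow from the stricter test and from fewer genes tested.

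The difference in log2 ratio ranged, without 1 library, from 0.079 to 0.21 for CDT1 to GMNN, from 0.30 to 0.50 for ORC1 to ORC6 and from -0.83 to -0.73 for CDC6 to CDT1. For the distance over the GINS genes it ranged from 0.95 to 0.99, and was 0.23 from counts with gene size left out. GENCODE 29 sizes and the GINS2 ratio were chosen after seeing the data. With a replicate block edgeR called the same number of the 10 genes, 10, and 79 of the partner and marker genes. It also called 8293 of the 15687 genes tested. The labels link libraries of different groups only by a number. The correlation of same-numbered libraries was -0.086 to -0.013, and 0 of 6 correlated best with its own number. With 3 libraries per group this cannot show whether same-numbered libraries shared a culture or batch. At 406 to 3823 counts per library, standard errors were 0.041 to 0.073 on the log2 scale.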
